A study of Rattus norvegicus with 4 samples.

Results

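The proteasome genes of the rat mammary gland were followed across 4 Affymetrix arrays. Members were chosen by symbol, as all genes whose single platform symbol starts with Psma, Psmb, Psmc or Psmd and a digit, leaving out Psmb8, Psmb9 and Psmb10. This gave 34 of the 14217 genes on the array. Of these, 30 encode core subunits of the constitutive particle, namely 13 of the 20S core and 17 of the 19S cap. Psmd5, Psmd9 and Psmd10 encode 3 chaperones that help assemble the cap. Psmc3ip, which encodes a cofactor of meiotic recombination, matched by symbol although it is no subunit. The catalytic gene Psmb6 was listed only on a probe set shared with Psmb6l1 and is not among the members.

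RNA came from homozygous Hirosaki hairless rats (HHR) at lactation, heterozygous HHR at lactation, Sprague-Dawley rats (SDR) at involution and SDR at lactation. HHR is a hairless mutant rat, and involution is the regression of the gland once milk removal stops. All 4 groups were sampled on day 1 of their stage, and each was represented by 1 array. The labels give neither the age of the animals, nor how many animals stand behind an array, nor how long lactation lasted before involution. Without replicates no difference below has an error or a test, so differences are described by size.

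The 26S proteasome degrades proteins that carry ubiquitin chains. Its 20S core is a barrel of stacked rings, in which the outer alpha rings form a gate and the inner beta rings hold the proteolytic sites. The 19S cap binds the barrel. Its base holds a ring of ATPases that unfold the substrate and large scaffold proteins, and its lid removes the ubiquitin chain. Subunit genes are known to be transcribed in concert, in mammals partly through the factor Nfe2l1, which binds antioxidant response elements. In the mammary gland, protein turnover changes as the secretory epithelium moves from milk production to regression.

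Signals are MAS5 intensities per probe set. A floor was set at 91.5, the 40th percentile over all arrays together, and lower values were raised to it. All 34 members lay above it in all 4 arrays, with signals between 141 and 14363. Signals of different probe sets are not a measure of relative abundance between genes. A log2 difference is the first-named array minus the second, and a gene was called at 2-fold or at 1.5-fold. The comparisons share arrays, since SDR lactation enters 3 of the 4, and their values stand side by side without a measure of overlap. As a sign of RNA quality, the Gapdh control probe sets were compared between their 3′ and 5′ ends, a ratio that grows with degradation. It was 2.30 in homozygous HHR, 1.93 in heterozygous HHR and 1.6 in SDR involution, against 1.17 in SDR lactation. For beta-actin it was 5.91, 7.86 and 4.80 in the same order, against 4.60 in SDR lactation. The part of RNA quality in the values below was not tested. The milk protein genes Csn1s1, Csn2, Csn3, Wap and Lalba, which mark the labelled tissue, had signals of at least 33299 in every array.

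Most members had the involution array as their highest. It was the highest of the 4 arrays for 30 of 34 members, where it was the highest for 36.4% of all 11395 genes above the floor in some array. The homozygous HHR array was the lowest for 23 of 34 members, against 23.9% of all genes. In the lactation arrays alone, homozygous HHR was lowest for 24 of 34 members (70.6%), where it was lowest for 27.5% of all genes, and heterozygous HHR was highest for 19 (55.9%), against 33.7% of all genes. Involution stood at least 1.5-fold above every lactation array for 16 members (47.1%), against 10.8% of all genes. The exceptions to involution at the top were Psmb5, highest in heterozygous HHR, and Psmb7, Psmd5 and Psmd10, highest in SDR lactation.

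**Figure D1:**
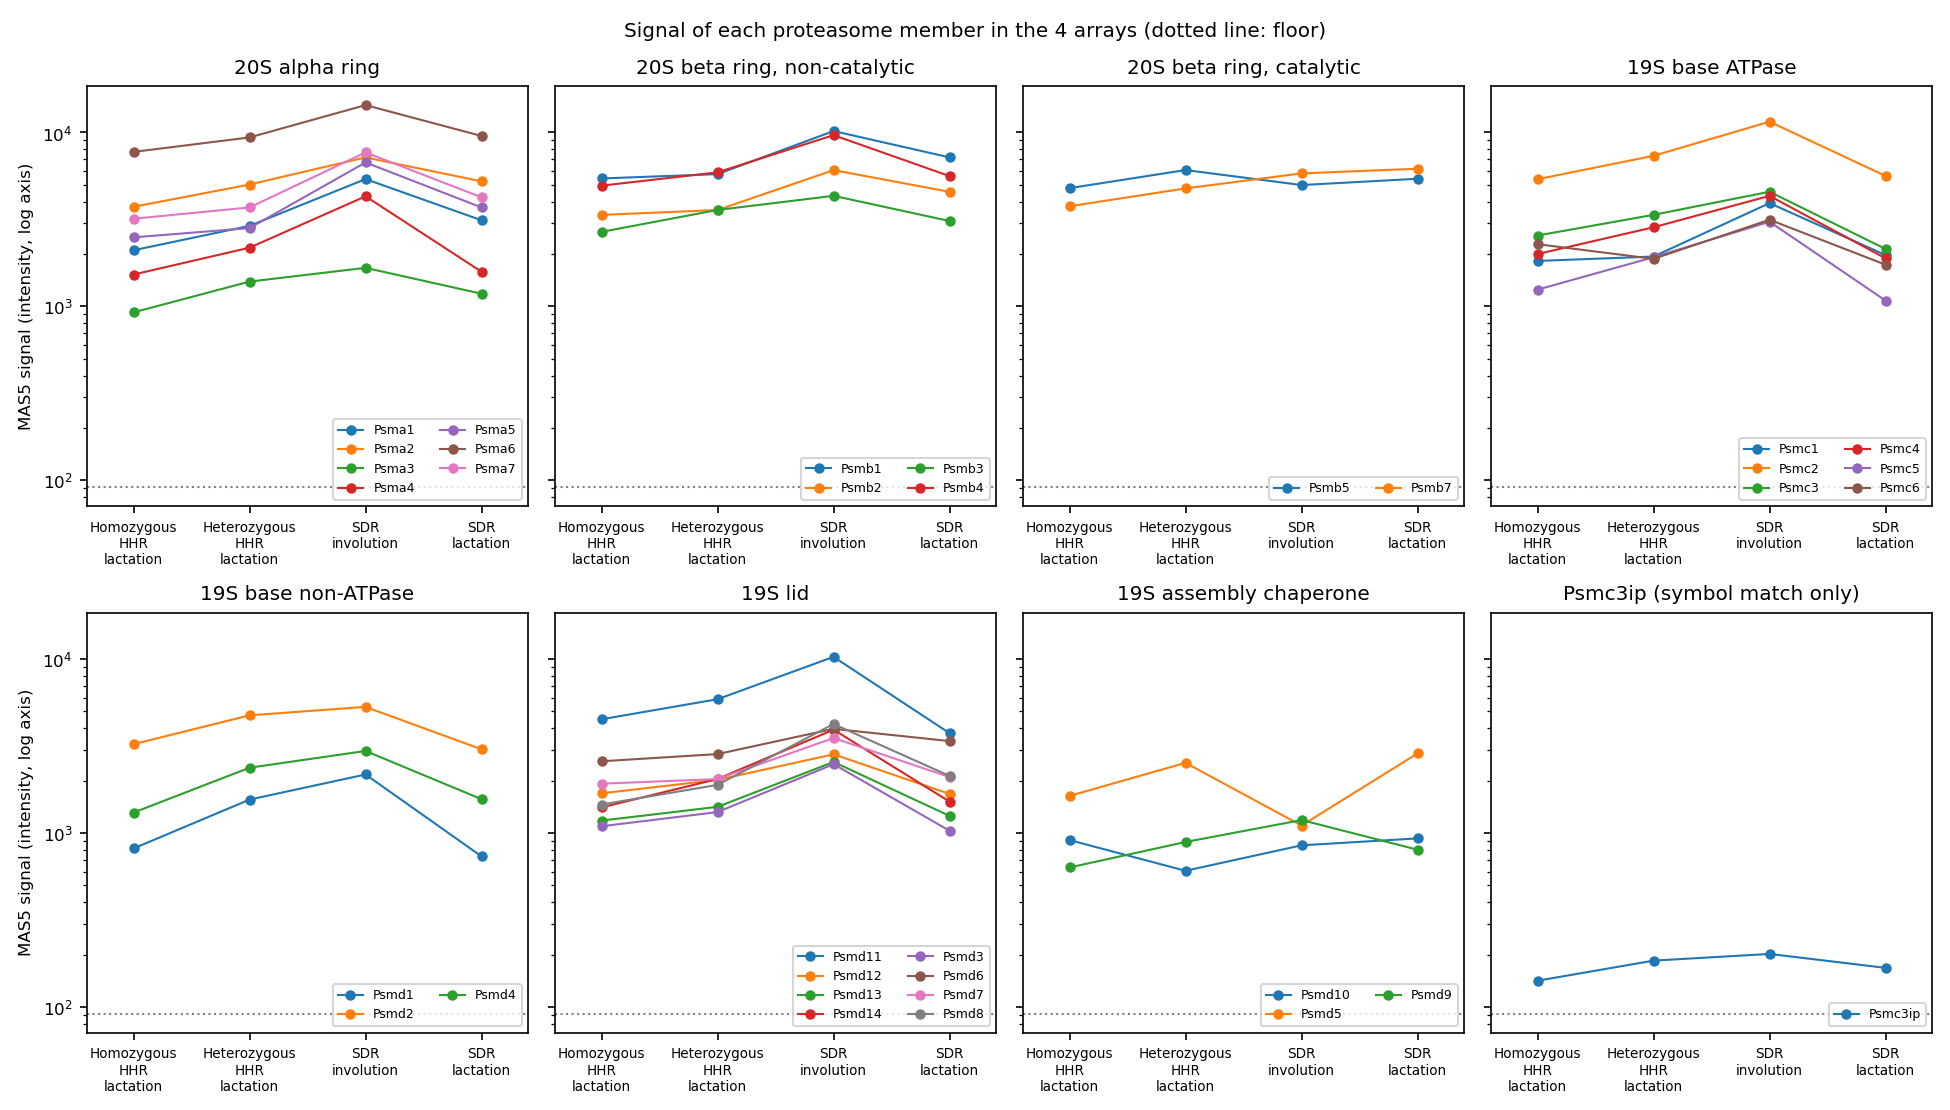
MAS5 signal (log axis) of each of the 34 members in the 4 arrays, with 1 panel per role and 1 line per gene; the dotted line is the floor of 91.5. Most lines peak at SDR involution, whereas the catalytic Psmb5 and Psmb7 do not, and Psmd5 dips there to 1103.

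The upstream sequences of 3 members are shown. Psmd1 and Psmd5 stand at the ends of the involution comparison described next, whereas Psmb5 does not. Psmd1 had the largest positive difference of all members, the catalytic Psmb5 had almost none, and Psmd5 had the largest negative one. Each sequence holds the 250 bases before the gene start, 5′ to 3′ in the direction of the gene, from RefSeq on the rat build GRCr8. Capitals mark matches to TGACNNNGC, the core of the antioxidant response element, searched on both strands.
Psmd1, chr9:94157721-94157970, plus strand: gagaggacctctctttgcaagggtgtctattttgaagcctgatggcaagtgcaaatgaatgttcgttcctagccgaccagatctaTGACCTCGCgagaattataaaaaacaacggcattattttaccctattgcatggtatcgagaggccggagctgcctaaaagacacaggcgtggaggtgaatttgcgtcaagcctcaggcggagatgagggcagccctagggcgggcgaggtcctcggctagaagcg
Psmb5, chr15:32047380-32047629, minus strand: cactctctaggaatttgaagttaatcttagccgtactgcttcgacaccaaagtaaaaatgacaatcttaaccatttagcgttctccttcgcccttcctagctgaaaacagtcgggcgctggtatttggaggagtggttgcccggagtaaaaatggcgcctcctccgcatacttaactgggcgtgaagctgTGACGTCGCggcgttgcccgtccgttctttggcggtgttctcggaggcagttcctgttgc
Psmd5, chr3:38548491-38548740, minus strand: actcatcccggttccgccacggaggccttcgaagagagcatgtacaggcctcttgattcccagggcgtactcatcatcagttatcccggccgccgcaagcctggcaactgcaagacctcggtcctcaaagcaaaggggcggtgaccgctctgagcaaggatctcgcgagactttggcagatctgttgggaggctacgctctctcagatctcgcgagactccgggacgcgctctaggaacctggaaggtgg
The match began 165 bases before the start in Psmd1 and 60 bases before it in Psmb5, and Psmd5 had none. RefSeq promoters were matched for 30 of the 34 members, and 5 of these (16.7%) held the motif, against 10.2% of 27457 promoters of the same length. The other 3 were Psma3, Psmb2 and Psmd9, with log2 differences in involution of 0.49, 0.41 and 0.57, below the members' median of 0.80. Psmc2, Psmc3, Psmc4, Psmc5, Psma4, Psmd3, Psmd11 and Psmd13, each at least 2-fold higher in involution, had no match. Psmd14, also past 2-fold, had no matched promoter. No match was found in Psmb7, whose log2 difference of -0.09 was the smallest in size of all members. The part of the motif in the differences was not tested. CCAAT, the core of the NF-Y box, was found on either strand in 17 of 30 members (56.7%) and in 34.3% of all promoters. TATAAA, searched on the gene's strand only, was found in 3 of 30 members (10%) and in 8.38% of all. The median GC content was 55.6% in the members' promoters and 52% in all, and its part in these shares was not tested. The members lie on 15 chromosomes, with at most 6 on 1 of them, chromosome 10.

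Involution was compared with lactation in SDR to show how the subunit genes stand on the first day of regression. Subunit genes were higher in involution in nearly every part of the particle, the 19S cap more than the 20S core. Of 34 members 30 had a higher signal, where 54.3% of 11014 measured genes did. At least 2-fold higher were 10 members, with 10.3% of all genes as the background, and 1 was at least 2-fold lower, with 8.94% as the background. At 1.5-fold the counts were 22 higher (23.5% of all genes) and 1 lower (18% of all genes). The median log2 difference of the members was 0.80, or 1.74-fold, against 0.08 for all genes. For the 17 cap subunits the median was 1.03, with all 17 above 0 and 9 at least 2-fold higher. For the 13 core subunits it was 0.50, with 11 above 0 and 1 at least 2-fold higher. The 9 luminal epithelial markers had a median of 0.78 in the same pair, close to that of the members. The 5 milk protein genes had one of -0.36, and the 6 measured adipocyte markers one of -1.03. The part of cell makeup in these differences was not tested.

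The ATPases of the cap's base, which pull substrates into the barrel, were all at least 1.5-fold higher in involution. Their log2 differences ran between 0.86 and 1.51 and 4 of 6 passed 2-fold, a count that was 2 under median centring and 5 under quantile normalization. Psmc5 had a signal of 1248 in homozygous HHR, 1918 in heterozygous HHR and 3068 in SDR involution, against 1080 in SDR lactation, a 2.84-fold difference. Psmc4 had 2001 in homozygous HHR, 2851 in heterozygous HHR and 4320 in SDR involution, against 1890 in SDR lactation (2.29-fold in involution). Psmc3 had 2556 in homozygous HHR, 3361 in heterozygous HHR and 4563 in SDR involution, against 2139 in SDR lactation (2.13-fold in involution). The genes of the ring thus differed in 1 direction. Psmc2, the brightest probe set of the role, had 5385 in homozygous HHR, 7343 in heterozygous HHR and 11531 in SDR involution, against 5624 in SDR lactation (2.05-fold in involution). Psmc1 stood just short of 2-fold, with 1826 in homozygous HHR, 1936 in heterozygous HHR and 3925 in SDR involution, against 1973 in SDR lactation. Psmc6 had 2279 in homozygous HHR, 1877 in heterozygous HHR and 3150 in SDR involution, against 1737 in SDR lactation (1.81-fold in involution).

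Of the scaffold and receptor proteins of the base, Psmd1, one of the large scaffolds, had 814 in homozygous HHR, 1554 in heterozygous HHR and 2167 in SDR involution, against 733 in SDR lactation, and its 2.96-fold difference was the largest of all members. Psmd4, a receptor for ubiquitin chains, had 1309 in homozygous HHR, 2371 in heterozygous HHR and 2959 in SDR involution, against 1563 in SDR lactation (1.89-fold in involution). Psmd2, the other large scaffold and a docking site for shuttle proteins, had 3238 in homozygous HHR, 4742 in heterozygous HHR and 5302 in SDR involution, against 3024 in SDR lactation (1.75-fold in involution). All members of this role were thus past 1.5-fold.

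The lid was also higher, with 8 of 8 subunits above 0, 7 past 1.5-fold and 4 past 2-fold. That last count was 2 with the mean of all probe sets and 5 under quantile normalization. Psmd11, a scaffold that clamps the lid to the core and base, had 4500 in homozygous HHR, 5870 in heterozygous HHR and 10284 in SDR involution, against 3742 in SDR lactation (2.75-fold in involution). Psmd14, the metalloprotease that cuts the ubiquitin chain from the substrate, had 1401 in homozygous HHR, 2042 in heterozygous HHR and 3922 in SDR involution, against 1513 in SDR lactation (2.59-fold in involution). On the probe set used, with a log2 difference of 1.37, the enzyme of the lid was thus among its largest differences. Its further probe sets had 1.0 and 0.56, and the further one of Psmd11 above the floor had 0.91, beside 1.46. Psmd3 had 1092 in homozygous HHR, 1318 in heterozygous HHR and 2484 in SDR involution, against 1029 in SDR lactation (2.41-fold in involution), and Psmd13 had 1177 in homozygous HHR, 1412 in heterozygous HHR and 2559 in SDR involution, against 1252 in SDR lactation (2.04-fold in involution). Psmd8 lay just short of 2-fold, with 1456 in homozygous HHR, 1889 in heterozygous HHR and 4226 in SDR involution, against 2126 in SDR lactation. The smallest lid difference was 0.23 on the log2 scale.

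In the core, all 7 alpha subunits were higher in involution, with log2 differences between 0.46 and 1.44. Psma4, whose counterpart in yeast has a central part in the gate, had 1525 in homozygous HHR, 2176 in heterozygous HHR and 4295 in SDR involution, against 1582 in SDR lactation, and at 2.71-fold it was the only core subunit past 2-fold, where quantile normalization gave 3. Psma5 had 2494 in homozygous HHR, 2821 in heterozygous HHR and 6724 in SDR involution, against 3705 in SDR lactation (1.81-fold in involution). Psma7 had 3192 in homozygous HHR, 3707 in heterozygous HHR and 7677 in SDR involution, against 4238 in SDR lactation (1.81-fold in involution). Other alpha subunits lay lower in the order. Psma1 had 2103 in homozygous HHR, 2904 in heterozygous HHR and 5395 in SDR involution, against 3126 in SDR lactation (1.73-fold in involution), and Psma6, with the brightest probe set of all members, had 7730 in homozygous HHR, 9362 in heterozygous HHR and 14363 in SDR involution, against 9540 in SDR lactation (1.51-fold in involution). Psma3 had the dimmest probe set of the ring, with 924 in homozygous HHR, 1389 in heterozygous HHR and 1667 in SDR involution, against 1183 in SDR lactation (1.41-fold in involution).

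In the beta ring the non-catalytic members and the 2 measured catalytic ones lay apart in these 2 arrays. The catalytic gene Psmb6 is not among the members. The 4 non-catalytic members were higher in involution, with log2 differences between 0.41 and 0.78. Psmb4 had 4944 in homozygous HHR, 5898 in heterozygous HHR and 9652 in SDR involution, against 5610 in SDR lactation (1.72-fold in involution). Psmb1 had 5440 in homozygous HHR, 5759 in heterozygous HHR and 10189 in SDR involution, against 7189 in SDR lactation (1.42-fold in involution), and Psmb3 had 2683 in homozygous HHR, 3585 in heterozygous HHR and 4323 in SDR involution, against 3097 in SDR lactation (1.40-fold in involution). Both catalytic members were slightly lower. Psmb5, which carries the chymotrypsin-like site, had 4785 in homozygous HHR, 6080 in heterozygous HHR and 4986 in SDR involution, against 5419 in SDR lactation, a log2 difference of -0.12. Psmb7, which carries the trypsin-like site, had 3763 in homozygous HHR, 4769 in heterozygous HHR and 5819 in SDR involution, against 6188 in SDR lactation, a log2 difference of -0.09. They were the only core subunits that were not higher in involution. With quantile normalization of the arrays both turned to above 0, with log2 differences of 0.0066 for Psmb5 and 0.086 for Psmb7, and with median centring they were -0.24 and -0.20, so the sign of differences this small depends on the scaling.

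The chaperones of the cap did not share one direction. Psmd5, which holds ATPase subunits before they join the particle and can restrain its assembly, had 1632 in homozygous HHR, 2528 in heterozygous HHR and 1103 in SDR involution, against 2865 in SDR lactation. At 2.60-fold lower it was the only member past 1.5-fold in that direction. Psmd9, which was picked after its values were seen, had 633 in homozygous HHR, 887 in heterozygous HHR and 1186 in SDR involution, against 801 in SDR lactation (1.48-fold in involution), but its further probe set, close to the floor, had 134 in SDR involution, against 197 in SDR lactation. Psmd10, also named gankyrin, had 910 in homozygous HHR, 606 in heterozygous HHR and 849 in SDR involution, against 930 in SDR lactation. Psmc3ip, the symbol match, had 141 in homozygous HHR, 185 in heterozygous HHR and 202 in SDR involution, against 168 in SDR lactation.

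**Figure D2:**
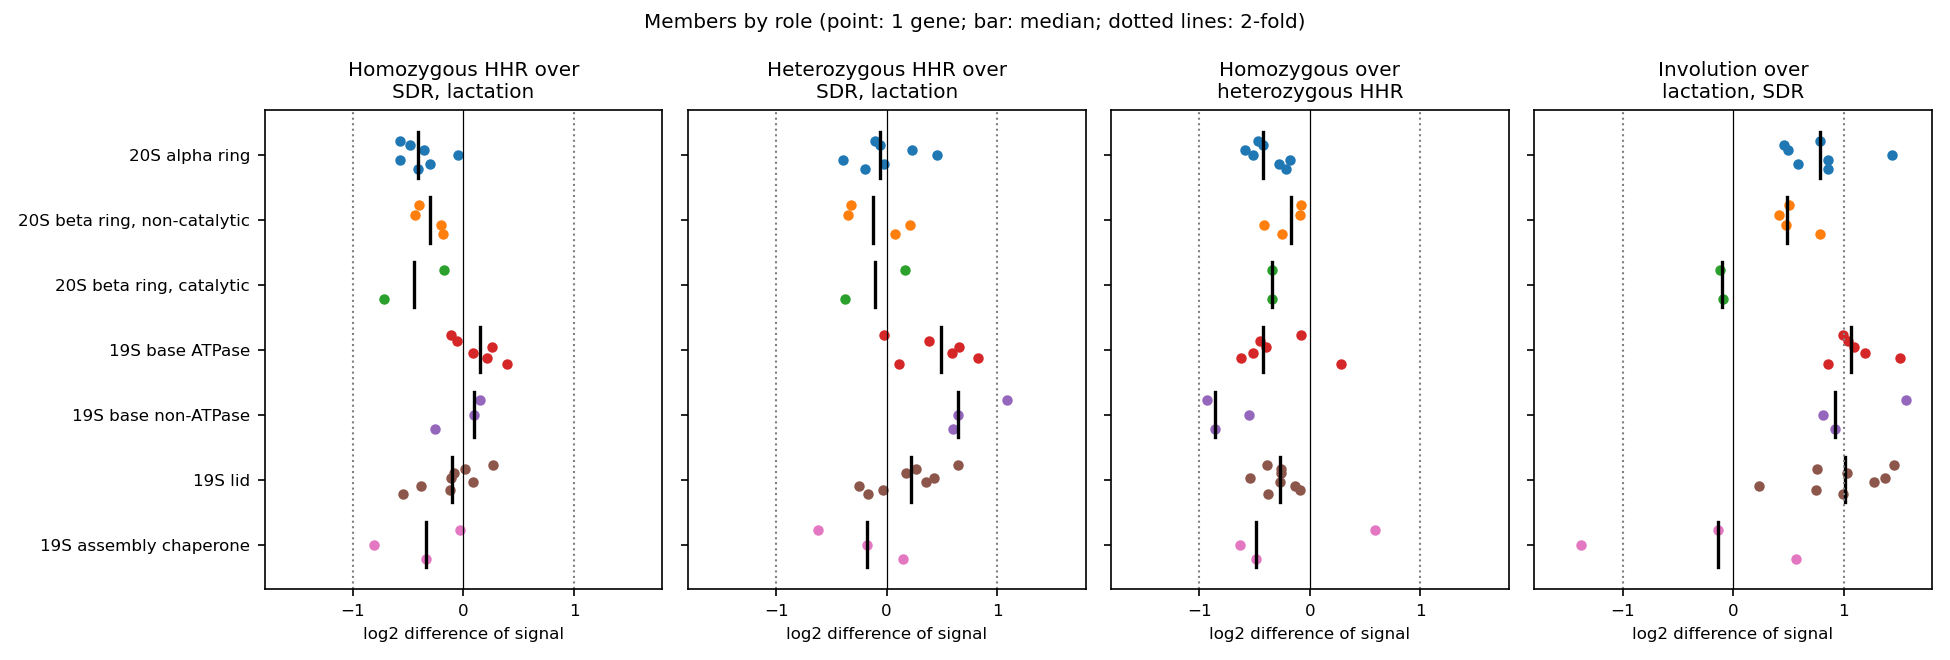
Log2 difference of MAS5 signal for each member (point) by role in the 4 comparisons, with the role's median as a bar and dotted lines at 2-fold. In involution the 3 cap roles centre at 0.92 to 1.06 and the catalytic beta members sit at -0.10 (just above 0 under quantile normalization), and in homozygous HHR over SDR every core subunit lies below 0.

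Homozygous HHR was compared with SDR at lactation to show how the subunit genes stand in the mutant gland. Core subunits were somewhat lower in homozygous HHR, and cap subunits lay around 0. All 13 core subunits had a lower signal, with a median log2 difference of -0.40, whereas 9 of 17 cap subunits had a higher one, with a median of 0.01 that turned to -0.04 under median centring. The core stayed below 0 in all 13 subunits under both other scalings. Over the 34 members 9 were above 0, against 51.4% of 10866 measured genes, and the median was -0.18 against 0.02. No member reached 2-fold, where 3.77% of all genes were higher and 2.72% lower. At 1.5-fold, 0 members were higher (12.2% of all genes) and 2 were lower (9.99% of all genes), and 5 were lower under median centring. With the mean of all probe sets 1 member was higher and 3 were lower.

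Those 2 members were Psmd5 and the catalytic Psmb7. Psmb7 had 3763 in homozygous HHR, against 6188 in SDR lactation, 1.64-fold lower, while Psmb5 had 4785 in homozygous HHR, against 5419 in SDR lactation. Psmd5 had 1632 in homozygous HHR, against 2865 in SDR lactation, 1.75-fold lower. Of the alpha ring, Psma1 had 2103 in homozygous HHR, against 3126 in SDR lactation (1.49-fold lower). Psma5 had 2494 in homozygous HHR, against 3705 in SDR lactation (1.49-fold lower), and Psma4 was nearest to SDR with 1525 in homozygous HHR, against 1582. The 4 non-catalytic beta members had log2 differences between -0.44 and -0.18.

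The ATPases of the cap differed little in this pair, with a median of 0.15 and a range between -0.11 and 0.39. Psmc6 had the highest difference of all members, with 2279 in homozygous HHR, against 1737 in SDR lactation (1.31-fold). Its further probe sets had log2 differences of 0.77 and 0.77, both past 1.5-fold and larger than the 0.39 of the one used. Psmd8 of the lid had 1456 in homozygous HHR, against 2126 in SDR lactation (1.46-fold lower). The scaffold Psmd1 had 814 in homozygous HHR, against 733 in SDR lactation.

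Heterozygous HHR was compared with SDR at lactation to separate carriers of the mutation from the reference strain. The base of the cap was higher in heterozygous HHR, and the core stayed close to SDR. Of 17 cap subunits 13 were above 0 and 7 at least 1.5-fold higher, with a median of 0.38. Of 13 core subunits 5 were above 0 and 0 reached 1.5-fold, with a median of -0.06. Over the 34 members 20 were above 0, against 51% of 10876 measured genes, and the median was 0.14 against 0.01. At least 2-fold higher was 1 member (4.58% of all genes) and 0 were lower (4.15% of all genes). At 1.5-fold 7 were higher, where 13.8% of all genes were, and 1 was lower, where 13% were. As shares of the members these are 20.6% higher, above the background, and 2.94% lower, below it. With median centring, the floor as a pseudocount or the mean of all probe sets, 5 members (14.7%) were higher.

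Psmd1 was the member past 2-fold, with 1554 in heterozygous HHR, against 733 in SDR lactation (2.12-fold). The other scaffold, Psmd2, had 4742 in heterozygous HHR, against 3024 in SDR lactation (1.57-fold). The receptor Psmd4 had 2371 in heterozygous HHR, against 1563 in SDR lactation (1.52-fold). All 3 of these base proteins thus passed 1.5-fold, and so did 3 of the 6 ATPases, but under median centring, or with the floor as a pseudocount, Psmd4 and Psmc4 fell short and 2 of 3 and 2 of 6 passed. Psmc5 had 1918 in heterozygous HHR, against 1080 in SDR lactation (1.78-fold), and Psmc3 had 3361, against 2139 in SDR lactation (1.57-fold). Psmc4 had 2851 in heterozygous HHR, against 1890 in SDR lactation (1.51-fold). Psmc1, with 1936 in heterozygous HHR against 1973 in SDR lactation, lay apart from them.

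In the lid Psmd11 passed 1.5-fold, with 5870 in heterozygous HHR, against 3742 in SDR lactation (1.57-fold). Its further probe set had a log2 difference of 0.23 there, and the call was lost when its probe sets were averaged (0.29). Psmd14 had 2042 in heterozygous HHR, against 1513 in SDR lactation (1.35-fold). In the core Psma4 had 2176 in heterozygous HHR, against 1582 in SDR lactation (1.38-fold), and Psma5 had 2821, against 3705 in SDR lactation (1.31-fold lower). Core subunits therefore lay on either side of SDR. The chaperone Psmd10 was the member past 1.5-fold in the lower direction, with 606 in heterozygous HHR, against 930 in SDR lactation.

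Homozygous and heterozygous HHR were compared to set the genotypes of the mutant strain side by side at lactation. Almost every member was lower in homozygous HHR, by small amounts. Of 34 members 2 were above 0, against 50.2% of 10877 measured genes, and the median was -0.38, or 1.30-fold lower, against 0.00 for all genes. The median was -0.34 in the core and -0.38 in the cap, so both parts of the particle lay alike in this pair. No member passed 2-fold, where 3.76% of all genes were higher and 3.14% lower. At 1.5-fold 1 member was higher (12.3% of all genes) and 5 were lower (11% of all genes). With the floor as a pseudocount these counts were 0 and 3.

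The largest negative differences were those of base proteins. Psmd1 had 814 in homozygous HHR, against 1554 in heterozygous HHR (1.91-fold lower), and Psmd4 had 1309, against 2371 in heterozygous HHR (1.81-fold lower). Psmd5 had 1632 in homozygous HHR, against 2528 in heterozygous HHR (1.55-fold lower). Psmc5 had 1248 in homozygous HHR, against 1918 in heterozygous HHR (1.54-fold lower). These members had been among the higher ones in heterozygous HHR over SDR, apart from Psmd5, and both differences use the same heterozygous array. Psma3 had 924 in homozygous HHR, against 1389 in heterozygous HHR (1.5-fold lower). The catalytic members were also lower, Psmb5 with 4785 in homozygous HHR against 6080 in heterozygous HHR and Psmb7 with 3763 against 4769. The exceptions were Psmd10, with 910 in homozygous HHR, against 606 in heterozygous HHR (1.5-fold higher), and Psmc6, with 2279 in homozygous HHR, against 1877 in heterozygous HHR.

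**Figure D3:**
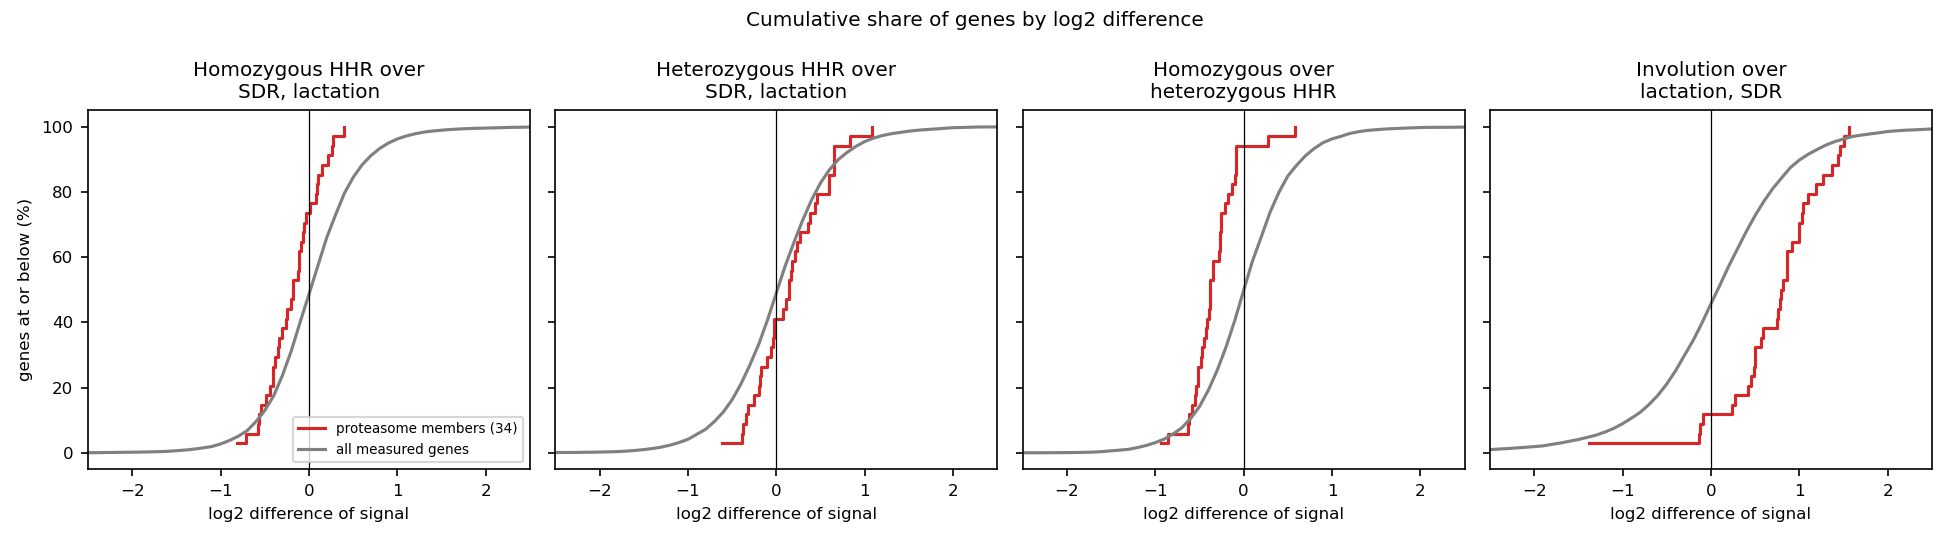
Cumulative share of genes (%) at or below each log2 difference of MAS5 signal, for the 34 members (red steps) and all measured genes (grey), in the 4 comparisons. The members' curve lies right of the grey one in involution (median 0.80 against 0.08) and left of it in homozygous over heterozygous HHR (median -0.38 against 0.00).

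Several probe sets were available for 7 of the members, with 11 further ones in all. Of these 7 lay above the floor in all 4 arrays and 4 in none, and none went opposite ways to another probe set past 1.5-fold on both sides. For involution over lactation the further probe sets of Psmc6 had log2 differences of 0.93 and 1.55, beside 0.86 for the one used. The further probe set of Psmd11 had 0.91, beside 1.46. Those of Psmd14 had 1.0 and 0.56, beside 1.37, and that of Psmd7 had 0.76, beside 0.75. In 4 of these 5 genes with further probe sets above the floor all of them gave the same direction for involution, with unequal sizes. In Psmd9 the used probe set had 0.57 and the further one -0.56. In homozygous HHR over SDR the further Psmd9 probe set had 97.9 in homozygous HHR, against 197 in SDR lactation, a log2 difference of -1.01. The RefSeq table lists a pseudogene or a like-named copy for 14 of the 34 members, among them Psma6 and Psmb3, and probe sets may not tell such copies apart, so these values are uncertain.

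**Figure D4:**
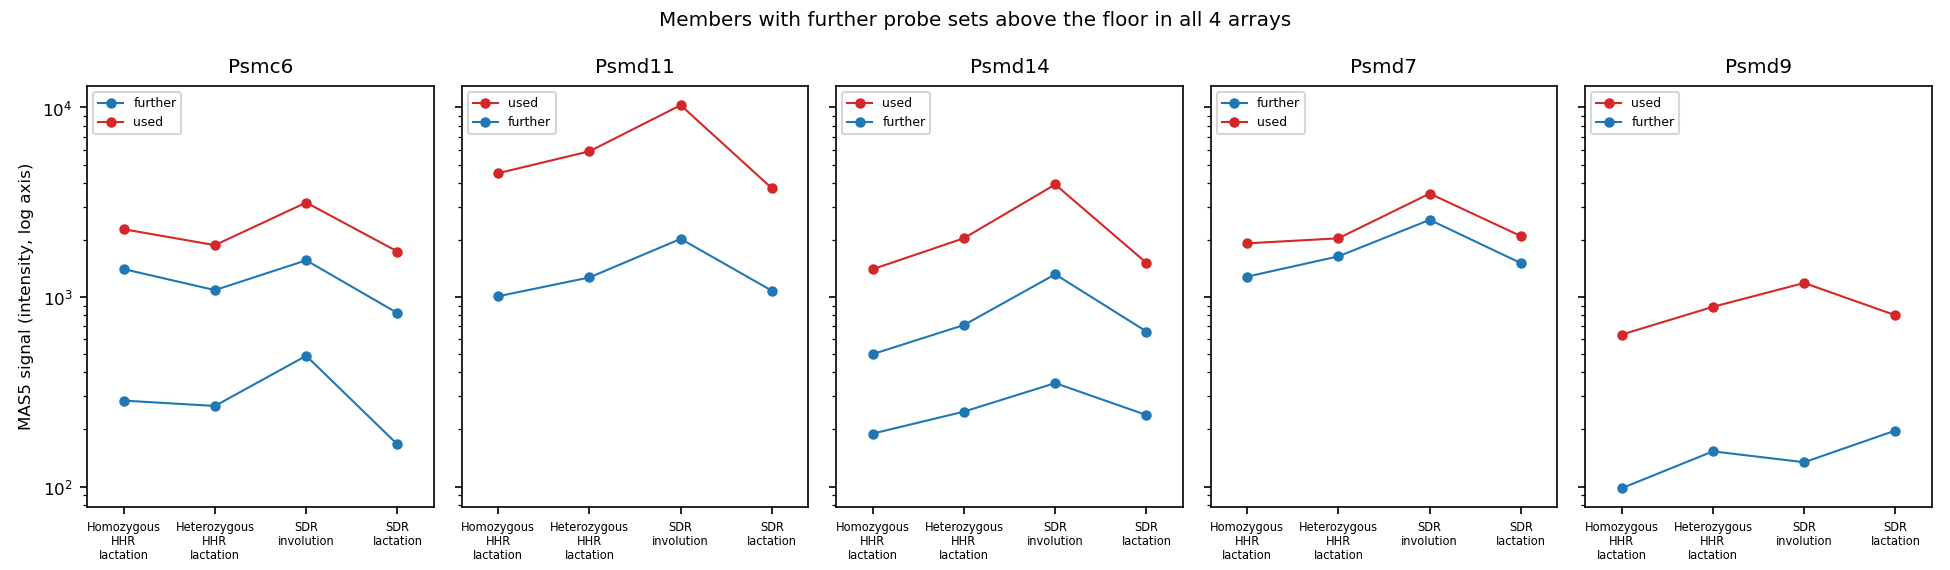
MAS5 signal (log axis) of every probe set above the floor in all 4 arrays for the 5 members that have further ones, with the probe set used in red and further ones in blue. In Psmc6, Psmd11, Psmd14 and Psmd7 each probe set is highest in SDR involution, and in Psmd9 the 2 probe sets differ in direction.

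Genes that work with the constitutive particle were taken from lists, whose medians stand beside those of the members. The 3 immunoproteasome subunits, which replace the catalytic members during immune responses, did not share one direction. Psmb8, which takes the place of Psmb5, had 2850 in homozygous HHR, 3378 in heterozygous HHR and 4569 in SDR involution, against 6528 in SDR lactation. It was 2.29-fold lower in homozygous HHR and lowest there of the 4 arrays. Psmb10, which takes the place of Psmb7, had 1404 in SDR involution, against 724 in SDR lactation (1.94-fold higher), so the replacement of Psmb7 was higher where Psmb7 itself was not. Psmb9 had 1135 in homozygous HHR, 1750 in heterozygous HHR and 2072 in SDR involution, against 1684 in SDR lactation.

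The 5 chaperones that assemble the 20S core had a median of 0.46 in involution, with Pomp and Psmg3 past 1.5-fold, and of -0.35 in homozygous HHR and -0.31 in heterozygous HHR over SDR. Pomp, which guides the maturation of the core, had 6905 in homozygous HHR, 7208 in heterozygous HHR and 14157 in SDR involution, against 8948 in SDR lactation. In all 5, homozygous and heterozygous HHR lay below SDR lactation, as the core subunits did in homozygous HHR. Psmg4 had 2252 in SDR involution, against 2275 in SDR lactation. Of the activators and the inhibitor of the core 4 of 5 listed genes were on the array, and none passed 2-fold in any pair. Psme4, a cap that needs no ATP, had 9132 in SDR involution, against 7376 in SDR lactation, and Psme1, a subunit of the interferon-inducible activator, had 4430, against 5306 in SDR lactation. Psme2, also a subunit of that activator, was picked after its values were seen and went the other way. It had 5379 in SDR involution, against 2882 in SDR lactation (1.87-fold higher). The list's median was 0.29 in involution, with 3 of 4 above 0.

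Of the 12 other cap and proteasome-bound proteins on the array, 1 was at least 2-fold higher in involution (10.3% of all genes). In heterozygous HHR over SDR 1 was at least 2-fold higher (4.58% of all genes). Ecpas, an adaptor that binds cap and core, had 1929 in homozygous HHR, 2307 in heterozygous HHR and 3128 in SDR involution, against 1330 in SDR lactation. Uchl5, a deubiquitinating enzyme of the base, had 2076 in homozygous HHR, 3490 in heterozygous HHR and 2055 in SDR involution, against 1711 in SDR lactation. Uchl5 was highest in heterozygous HHR, unlike most subunits. Usp14, the deubiquitinating enzyme that docks on Psmd2 and was picked after its values were seen, had 2423 in homozygous HHR, 4274 in heterozygous HHR and 4318 in SDR involution, against 2264 in SDR lactation. Its values in heterozygous HHR and in involution were nearly the same. The list's median was 0.26 in involution, 0.15 in heterozygous HHR and 0.08 in homozygous HHR over SDR. Txnl1 and Rad23b, the brightest of those short of 2-fold, had 6461 and 5336 in SDR involution, against 4911 and 5664 in SDR lactation.

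The ubiquitin activating and conjugating enzymes had medians near those of all genes, 0.14 in involution, 0.01 in heterozygous HHR and 0.07 in homozygous HHR over SDR. Of the 16 genes, 1 was at least 2-fold higher (10.3% of all genes) and 2 lower (8.94% of all genes) in involution. The higher one, Ube2r2, which was picked after its values were seen, had 2671 in SDR involution, against 1064 in SDR lactation. The 2 lower ones were Ube2c and Ube2s, which serve mitotic exit. Ube2c had 1409 in homozygous HHR, 5303 in heterozygous HHR and 167 in SDR involution, against 1203 in SDR lactation. Ube2b had 3394 in homozygous HHR, against 1321 in heterozygous HHR (2.57-fold), and Ube2h had 2564, against 1260 in heterozygous HHR (2.04-fold). In the same pair Ube2c was 3.76-fold and Ube2s 2.06-fold lower in homozygous HHR, 7 of the 16 enzymes were above 0, and the list's median was -0.18. Uba1, the main activating enzyme, had 3002 in SDR involution, against 2955 in SDR lactation, and Ube2k had 6172, against 5152 in SDR lactation.

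The list of the Nfe2l1 pathway, which drives subunit transcription, had medians of 0.09 in involution, 0.05 in heterozygous HHR and 0.19 in homozygous HHR over SDR. Nfe2l1 itself had 794 in homozygous HHR, 512 in heterozygous HHR and 629 in SDR involution, against 383 in SDR lactation. It was 2.07-fold higher in homozygous HHR over SDR, where 9 of 34 members were above 0 and their median was -0.18. In involution it was 1.64-fold higher, where the members' median was 0.80. The part of Nfe2l1 in the members' values was not tested. Ngly1, the enzyme that removes sugars from Nfe2l1, had 1685 in SDR involution, against 3411 in SDR lactation (2.02-fold lower). Vcp, the unfoldase that extracts ubiquitinated proteins, had 12344 in SDR involution, against 7199 in SDR lactation (1.71-fold higher). Maff, a partner of Nfe2l1, had 228 in homozygous HHR, against the floor in heterozygous HHR and SDR lactation, and Nfe2l2 had 2801 in homozygous HHR, against 3352 in SDR lactation.

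**Figure D5:**
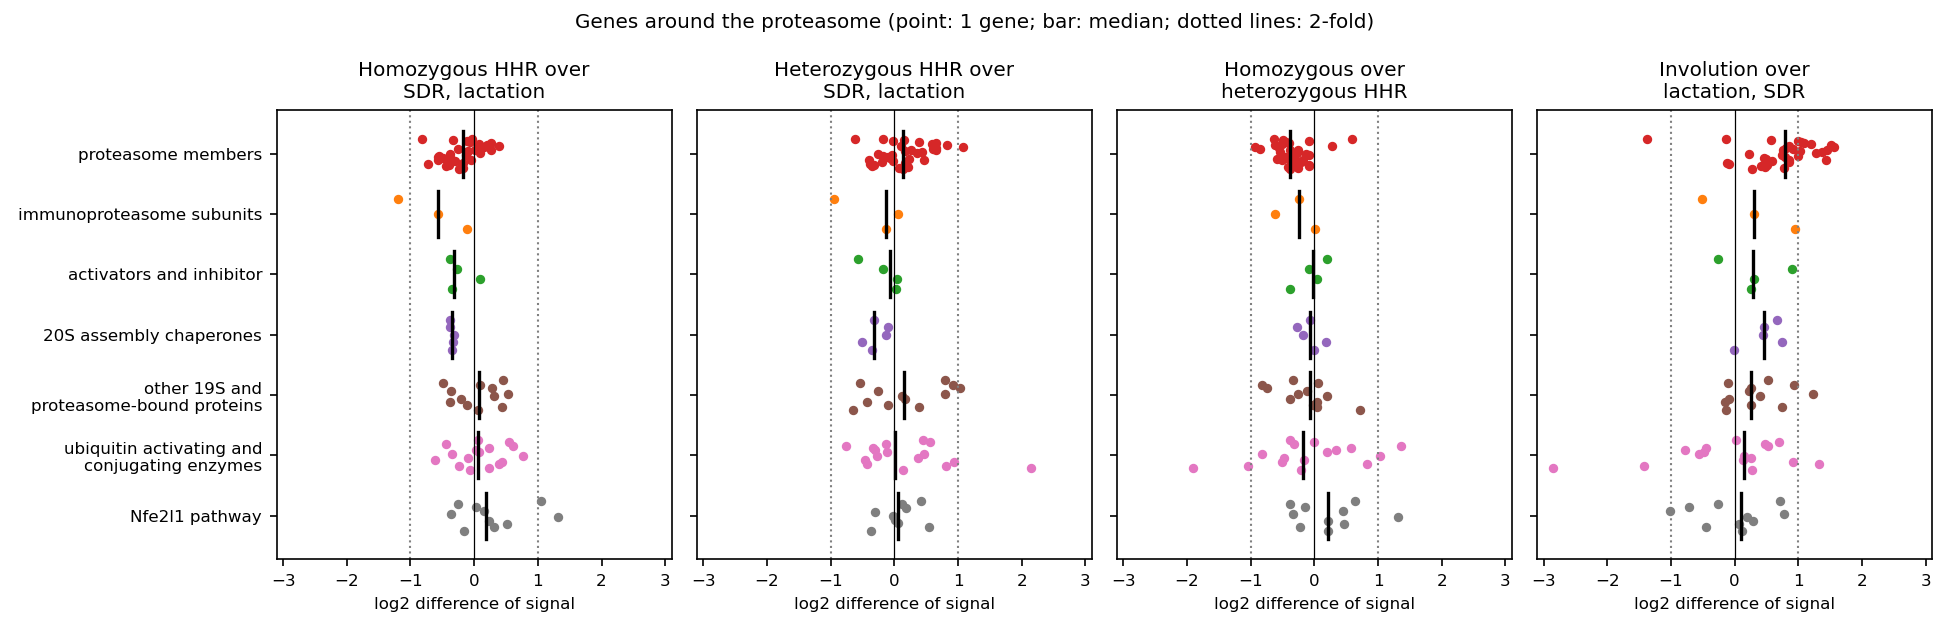
Log2 difference of MAS5 signal for each gene (point) of the 34 members and of 6 lists around the proteasome in the 4 comparisons, with the median as a bar and dotted lines at 2-fold. The involution median is 0.80 for the members, 0.46 for the 20S assembly chaperones and 0.14 for the ubiquitin enzymes.

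Levels of other cell programmes moved with some of these values, and their part in them was not tested. RNA was taken from whole gland, so a change in the share of cells of a type cannot be told apart from a change in RNA per cell. The 9 luminal epithelial markers, all above the floor in every array, had a median of 0.78 in involution. Their summed signal was 118650 in SDR involution, against 60748 in SDR lactation. At least 2-fold higher were 4 of 9 (10.3% of all genes), and 1 was lower (8.94% of all genes). The higher ones were the keratins Krt8 (4.37-fold), Krt18 (3.46-fold) and Krt19 (4.84-fold) and the adhesion gene Cdh1, and the lower one was Elf5, a factor of milk-secreting cells (4.0-fold). Of the 5 milk protein genes 0 were above 0 in involution, with a median of -0.36. Their summed signal was 206244 in SDR involution, against 265330 in SDR lactation. Among the 7 adipocyte markers, of which Lep was at the floor in all 4 arrays, the summed signal was 9033 in SDR involution, against 31745 in SDR lactation. Of the 6 measured ones 5, namely Fabp4, Adipoq, Pparg, Plin1 and Cfd, were at least 1.5-fold lower (18% of all genes). Summed signals of macrophage markers (9 of 9 above the floor in every array) were 7339 in homozygous HHR, 5225 in heterozygous HHR and 8186 in SDR involution, against 10226 in SDR lactation. Those of the 8 endothelial markers were 6517, 5909 and 6226, against 9666 in SDR lactation. Those of the 8 T cell markers, of which 4, 5 and 4 were above the floor, against 7 in SDR lactation, were 1599, 1710 and 1489, against 2711 in SDR lactation, with Cd8a at the floor in every array. Those of the 8 fibroblast and matrix markers were 66248, 42680 and 53568, against 67078, and those of the 9 myoepithelial markers were 45343, 46425 and 33344, against 27922 in SDR lactation. Such sums lean on the brightest probe sets, so medians follow in the same order. Macrophage markers had median log2 differences from SDR lactation of -0.21, -0.82 and -0.23, with 4, 1 and 3 of 9 above 0. Endothelial markers had -0.45, -0.67 and -0.22, with 2, 0 and 3 of 8 above 0. The 7 measured T cell markers had -0.72, -0.44 and -0.78. Fibroblast and matrix markers had -0.01, -0.77 and -0.24, and myoepithelial markers 0.61, 0.68 and 0.08.

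Cell cycle genes lay opposite to the members in involution and in homozygous HHR over SDR. They lay on the same side in the pairs with heterozygous HHR, which share that array. Of 21 measured, 16 were at least 2-fold lower in involution over lactation (8.94% of all genes), with a median of -2.21. In homozygous HHR over SDR 17 of 21 were above 0, with a median of 0.37. The members had 9 of 34 above 0 there, with a median of -0.18. In heterozygous HHR over SDR 18 were at least 2-fold higher (4.58% of all genes), with a median of 1.62 beside 0.14 for the members. In homozygous over heterozygous HHR 15 were at least 2-fold lower (3.14% of all genes), with a median of -1.34 beside -0.38 for the members. The part of cell cycle genes in the members' differences was not tested. Mki67, a marker of dividing cells, had 4059 in homozygous HHR, 10701 in heterozygous HHR and 224 in SDR involution, against 2496 in SDR lactation. Interferon response genes, whose programme includes the immunoproteasome, had a median of -0.48 in homozygous HHR, -0.92 in heterozygous HHR and 0.76 in involution, each against SDR lactation. Of 18 measured, 8 were at least 2-fold lower in heterozygous HHR over SDR (4.15% of all genes) and 3 in homozygous HHR over SDR (2.72%). In involution 7 were at least 2-fold higher (10.3%) and 1 lower (8.94%). Irf1, a factor of that response, had 727 in homozygous HHR, 776 in heterozygous HHR and 2325 in SDR involution, against 762 in SDR lactation. Irf7 had 437, 287 and 1480 in the same order, against 892 in SDR lactation. Cxcl9 had 391, 391 and 538, against 3051 in SDR lactation.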

How the data were processed

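Mammary gland RNA of 4 groups of rats was hybridised to 1 Affymetrix array each, as biotinylated cRNA per the labels' protocols. The deposited values are MAS5 intensities per probe set on a linear scale, MAS5 being named without a version per the submitters' processing notes. The values themselves show a scaling to 1 level before they were deposited, since each array's mean trimmed by 2% at either end was 500.2. Detection calls were not used here.

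The 57 control probe sets were set aside. Of the other 31042, 20826 listed 1 symbol in the platform annotation, and only these were named; 0 symbols of members differed in a RefSeq table of GRCr8, used for names, chromosomes and promoters. Low values were raised to the 40th percentile over all arrays, before log2. Where a gene had several probe sets, the one of highest mean log2 stood for it. A gene counted in a pair if either array exceeded the floor. No test was made, since each group has 1 array, and this number limits the precision. The steps were tested on simulated data.

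Members and lists were chosen with earlier results of these data known. All members were accounted for by role. Values were given for catalytic members, the brightest and dimmest of each role, and the 20 with the largest difference past 1.5-fold. From other lists up to 4 genes past 2-fold and 2 short of it were eligible by brightness. Genes outside these rules were named after their values were seen: Psmd9, Usp14, Ube2r2, Psmg3, Psme2, Cdh1 and Pparg. Also outside them, Psmd7 was named for its further probe set and Psmb2 for its motif match. Csn2, Wap and Lalba were named as the rest of the milk protein list, and Lep and Cd8a as markers at the floor. A further list is not reported here. Python 3.11.15, numpy 2.4.6, pandas 2.3.3 and matplotlib 3.10.9 were used. Alternatives were other scalings, floors, probe set rules, thresholds and a core set of members.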

Additional observations from a re-analysis of the deposited data

How the results depend on the processing

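No paired analysis was possible because each group has 1 array. The members' medians kept their sign under every alternative tried, between -0.23 and -0.15 for homozygous HHR over SDR, 0.10 and 0.17 for heterozygous HHR over SDR, -0.38 and -0.31 for homozygous over heterozygous HHR, and 0.68 and 0.93 for involution. The ends for involution were median centring (0.684) and quantile normalization (0.929). Median centring took the median of all genes in that pair to -0.04, beside 0.08 as deposited, and the genes past 2-fold to 8.18% higher and 10.9% lower, and 7 members were then at least 2-fold higher, against 14 under quantile normalization. With the floor as a pseudocount 0 members passed 2-fold higher in heterozygous HHR over SDR, since that setting shrinks differences. With core subunits only, 0 members were 2-fold lower in involution and 1 was above 0 in homozygous over heterozygous HHR, as chaperones are then left out. A 1.5-fold threshold gave 2 lower in homozygous HHR over SDR, 7 higher and 1 lower in heterozygous HHR over SDR, 1 higher and 5 lower in homozygous over heterozygous HHR, and 22 higher in involution. Of the single members' differences past 1.5-fold none changed sign, and of their values under alternatives 235 moved by less than 0.1 on the log2 scale and 38 by more. With 1 array per group no replicate could be left out, and differences below the unknown spread between animals cannot be told from it.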
